A study of Homo sapiens with 8 samples.

Results

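The genes described here encode the enzymes and the chaperone that modify, fold and crosslink collagen: the 5 lysyl oxidases (LOX, LOXL1, LOXL2, LOXL3 and LOXL4), the 3 lysyl hydroxylases (PLOD1, PLOD2 and PLOD3) and the collagen chaperone SERPINH1. They were chosen by name, and all 9 have a row among the 13307 genes of the table of normalized counts. The cells are Panc-1, a human epithelial tumour line from a pancreatic duct carcinoma. Cells were transfected with control siRNA (siControl) or with siRNAs against PHF13 (siPHF13), a PHD finger protein that binds trimethylated lysine 4 of histone H3, and were left without TGFβ or, from the day after transfection, kept for 48 h in medium with 10 ng/ml TGFβ, a cytokine that induces epithelial-mesenchymal transition. The 4 groups (siControl, siPHF13, siControl + TGFβ and siPHF13 + TGFβ) hold 2 libraries of polyA RNA each, and all 8 libraries come from transfected cells. The labels do not say that the libraries of a group come from separate cultures, so the p-values measure the spread between these libraries, which may be technical. The siRNAs against PHF13 are not told apart in the labels, so an effect of PHF13 loss and an effect of these siRNAs on other transcripts cannot be told apart.

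Collagen chains are modified in the endoplasmic reticulum before they fold into a triple helix, and lysyl hydroxylases add hydroxyl groups to their lysines there. PLOD2 acts on the telopeptides at the ends of the chains, which sets the kind of crosslink that can form later, PLOD1 acts mainly within the helix, and PLOD3 also carries a glycosyltransferase activity. SERPINH1, also called HSP47, binds folded procollagen and escorts it to the Golgi. After secretion, the copper-dependent lysyl oxidases turn lysines and hydroxylysines into aldehydes, from which the covalent crosslinks of collagen fibrils and elastin form. In pancreatic cancer these genes are known for their part in the stiff, collagen-rich stroma, most of which is made by fibroblasts.

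The 250 bases before the start of 4 genes are shown because these are genes with an adjusted p under 0.05 for depletion in both media and because promoter elements for hypoxia and heat shock are textbook features of this group. Starts are those of RefSeq (GRCh38.p14), and each sequence was located by an exact match in GRCh37, the build of the hg19 mapping. RefSeq has 3 starts for LOX and 2 for SERPINH1, and the one nearest the start of the canonical transcript in GENCODE was used. By the gene bounds given below, the LOXL1 and PLOD2 windows lie wholly inside the annotated gene. Those of LOX and SERPINH1 lie partly inside it. The sequences run 5′ to 3′ on the strand of the gene: LOX at chr5:121413955-121414204 (minus strand), LOXL1 at chr15:74218553-74218802 (plus strand), PLOD2 at chr3:145878972-145879221 (minus strand) and SERPINH1 at chr11:75273048-75273297 (plus strand). Capitals mark matches on either strand to ACGTG, the core of the hypoxia response element, to GAANNTTC, a pair of heat shock element units, to CAGAC, the SMAD box, to TGANTCA, the AP1 site, and to CACCTG, an E-box bound by SNAI and ZEB factors.
LOX: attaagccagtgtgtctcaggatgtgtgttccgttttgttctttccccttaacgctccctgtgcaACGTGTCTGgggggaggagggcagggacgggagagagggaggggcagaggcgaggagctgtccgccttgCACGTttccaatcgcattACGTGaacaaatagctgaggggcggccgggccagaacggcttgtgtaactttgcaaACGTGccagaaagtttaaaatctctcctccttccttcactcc
LOXL1: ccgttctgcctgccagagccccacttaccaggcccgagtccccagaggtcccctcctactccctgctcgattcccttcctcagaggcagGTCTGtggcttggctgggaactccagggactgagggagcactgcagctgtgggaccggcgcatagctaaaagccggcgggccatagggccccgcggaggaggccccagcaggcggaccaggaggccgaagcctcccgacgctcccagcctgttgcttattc
PLOD2: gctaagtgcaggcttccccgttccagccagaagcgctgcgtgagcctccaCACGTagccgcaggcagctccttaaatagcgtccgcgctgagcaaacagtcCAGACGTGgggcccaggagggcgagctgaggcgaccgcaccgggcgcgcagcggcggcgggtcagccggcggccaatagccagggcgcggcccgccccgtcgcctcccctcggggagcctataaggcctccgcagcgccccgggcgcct
SERPINH1: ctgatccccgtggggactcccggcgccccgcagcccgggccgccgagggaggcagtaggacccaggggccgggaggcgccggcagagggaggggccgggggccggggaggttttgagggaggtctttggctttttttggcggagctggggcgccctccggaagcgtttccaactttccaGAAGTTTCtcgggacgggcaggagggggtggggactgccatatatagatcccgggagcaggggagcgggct
The LOX window held 4 matches to ACGTG, beginning 185, 116, 98 and 42 bases before the start, and the first of them overlaps a match to CAGAC on the other strand. The PLOD2 window held 2 matches to ACGTG, 200 and 146 bases before the start, of which the nearer overlaps a match to CAGAC. SERPINH1 had 1 match to GAANNTTC, 71 bases before the start, and no ACGTG. LOXL1 had neither and 1 match to CAGAC, 161 bases before the start. Among 35116 RefSeq promoters of the same length, 18.5% held ACGTG, 5.78% held GAANNTTC, 38.0% held CAGAC, 6.57% held TGANTCA and 17.5% held CACCTG. LOXL2 met the same condition on the adjusted p, and its window was not analysed here. The windows of LOXL3, LOXL4, PLOD1 and PLOD3, not shown, held neither ACGTG nor GAANNTTC. A match is a description of the letters and not a binding site, and no match says only that these letters are not in the window.

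Between 39196214 and 46700806 reads per library fell on genes, and the highest gene took 0.98 to 1.13% of a library. PHF13 itself lay at 1804 and 1662 normalized counts in siControl and at 524.2 and 558.3 in siPHF13, a mean of 31.2% of the control. With TGFβ it lay at 1586 and 1709 against 512.8 and 529.4, a mean of 31.6% (limma, adjusted p = 1.3e-08). All 6 markers of duct carcinoma epithelium were present. KRT8 lay at 70720 to 120000 normalized counts over the libraries, KRT18 at 29410 to 49040 and KRT19 at 18360 to 40980. KRT7, EPCAM and CDH1 were far lower, at 378.9 to 488.9, 115.2 to 305.8 and 78.81 to 459.5. Of 6 fibroblast markers, PDGFRB and THY1 had a row and PDGFRA, DCN, LUM and FAP had none, and the summed level of those present was 185.5 to 490.5. Depletion raised EPCAM and lowered CDH1 of the epithelial markers and lowered THY1 without TGFβ, and raised KRT19 and EPCAM with it, while TGFβ lowered KRT8, KRT19 and CDH1 in control cells. Of 3 endothelial markers 0 had a row. Of 4 leukocyte markers PTPRC and CD3E had no row, while CD68, a lysosomal protein that many cell types express, was higher in siPHF13 (11900 and 13050 against 7360 and 7236) and CD79A lay at 46.75 and 52.28 against 0.9485 and 2.703. CD68 and CD79A were higher with depletion under TGFβ as well, and the summed leukocyte markers ranged from 6148 to 7671 in the control groups and from 10590 to 13470 in the depleted groups. The part of other cells in the results below was not tested.

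Depletion of PHF13 moved the group in both directions in both media. Without TGFβ, LOX, LOXL4 and SERPINH1 rose and LOXL1 fell, so that 3 of 9 were called higher and 1 lower, against 7.95% of all genes called higher and 10.4% called lower. Changed means past both thresholds, 0.05 for the adjusted p and 0.58 for the size of the log2 fold change, in a limma fit to log2(normalized count + 1). With TGFβ, LOX, LOXL3 and SERPINH1 rose and LOXL1 fell, again 3 higher and 1 lower of 9, where 8.81% of all genes were called higher and 11.7% lower. In bulk RNA fewer cells of a type and less RNA per cell cannot be told apart. The median log2 fold change of the 9 was 0.34 without and -0.02 with TGFβ, and that of all genes was 0 in both. These comparisons share no library, but they share the siRNAs and a common estimate of the spread. LOX, SERPINH1 and LOXL1 were called the same way in both. The share of all genes called the same way in both is not given here, so this is a description only. Both depleted libraries lay above or below both controls for 9 of the 9 genes without TGFβ and for 7 with it, which 77.3% and 71.7% of all genes did too.

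With TGFβ 1 of the 9, LOXL4, rose in control cells and 0 fell, against 3.27% of all genes higher and 1.52% lower. In depleted cells 0 of 9 were called, against 1.13% higher and 0.218% lower over all genes. At an unadjusted p under 0.05 without the fold threshold, 4 of the 9 (LOXL1, LOXL4, PLOD1 and PLOD2) differed there, as did 13.9% of all genes. The median log2 fold change of the 9 was 0.23 in control cells and 0.12 in depleted cells, beside -0.01 over all genes in each. The TGFβ comparisons share libraries with those of depletion, but not with each other, apart from the common estimate of the spread. Libraries did not overlap for 8 of the 9 in control cells and for 6 in depleted cells, as for 60.2% and 39.8% of all genes. The plot of fold changes shows the depletion effects beside those of TGFβ. In control cells LOXL4, PLOD1, PLOD2 and PLOD3, 4 of the 9, had an adjusted p under 0.05 with TGFβ, as 15.9% of all genes did.

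**Figure D1:**
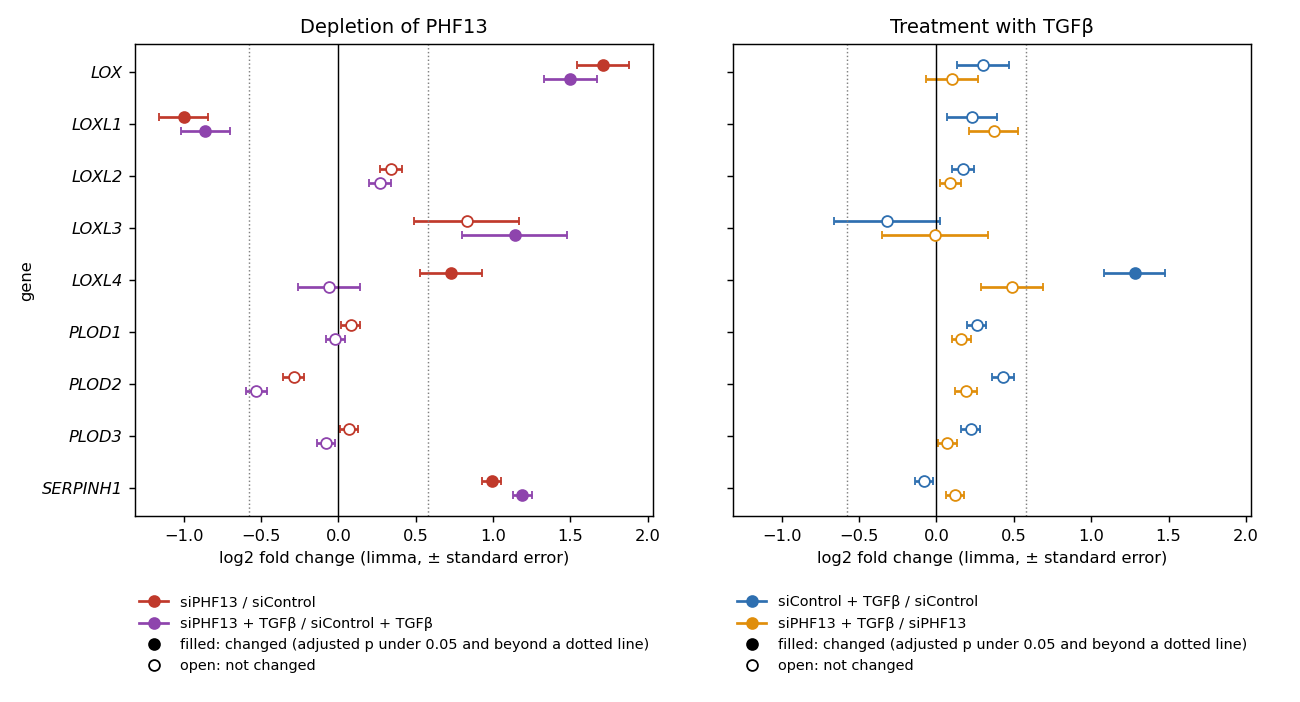
Log2 fold change of each of the 9 genes (x axis, limma, bars give the standard error) for depletion of PHF13 (left, without and with TGFβ) and for TGFβ (right, in control and in depleted cells). Filled points passed both thresholds: LOX, LOXL4 and SERPINH1 to the right and LOXL1 to the left on depletion without TGFβ, LOX, LOXL3 and SERPINH1 to the right and LOXL1 to the left with it, and LOXL4 alone among the 9 for TGFβ in control cells.

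LOX, the founding member of its family (chr5:121398890-121414108 in GRCh37, minus strand), had the largest rise of the 9. It lay at 110 and 133.3 normalized counts in siControl, 446.6 and 354.1 in siPHF13, 148.8 and 150.2 in siControl + TGFβ and 391.9 and 461 in siPHF13 + TGFβ. Every depleted library was above every control library. The rise was 3.29-fold in means without TGFβ (log2 fold change 1.71 ± 0.17 SE, adjusted p = 3.05e-06) and 2.85-fold with it (1.5, adjusted p = 8.72e-06). TGFβ itself gave 0.3 in control cells (adjusted p = 0.28) and 0.1 in depleted cells (adjusted p = 0.876). SRFBP1 overlaps LOX on the opposite strand and the strand setting of the counting is not given in the sources used here. Its own log2 fold changes on depletion were 0.15 without and 0.15 with TGFβ.

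LOXL1, which acts mainly on elastin (chr15:74218330-74244478, plus strand), went the other way. It lay at 410.7 and 385.6 in siControl and 214.8 and 182.5 in siPHF13, and at 488.4 and 444.3 in siControl + TGFβ against 299 and 220.4 in siPHF13 + TGFβ. The ranges of control and depleted libraries did not overlap, and means were 49.9% and 55.7% of the control (log2 fold changes -1 and -0.86, adjusted p = 0.000203 and 0.000629). TGFβ gave 0.23 in control cells (adjusted p = 0.403) and 0.37 in depleted cells (adjusted p = 0.317), so neither passed.

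LOXL2, a secreted oxidase of collagen IV (chr8:23154410-23282841, minus strand), was by far the most abundant of the family in these cells. It lay at 12740 and 12660 in siControl, 15710 and 16550 in siPHF13, 14670 and 13930 in siControl + TGFβ and 18190 and 16250 in siPHF13 + TGFβ. Depleted libraries were above controls in each medium, by 1.27-fold (adjusted p = 0.000672) and 1.2-fold (adjusted p = 0.00381), short of the fold threshold. ENTPD4, which overlaps it on the same strand, had log2 fold changes of -0.28 and -0.3 there, opposite in sign.

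LOXL3 and LOXL4, oxidases with scavenger receptor domains like LOXL2, were low, and theirs were the calls among the 9 that leaving out 1 library could end. LOXL3 (chr2:74759385-74782817, minus strand) lay at 31.3 and 43.25 in siControl, 63.66 and 69.05 in siPHF13, 26.95 and 31.89 in siControl + TGFβ and 52.9 and 81.81 in siPHF13 + TGFβ. Both depleted groups stood above their controls, by 1.78-fold (log2 fold change 0.83 ± 0.34 SE, adjusted p = 0.0578) and 2.29-fold (1.14 ± 0.34, adjusted p = 0.0124). Without siControl + TGFβ replicate 1 or siPHF13 + TGFβ replicate 2 the adjusted p of the latter became 0.063 and 0.129, and in a fit of the libraries compared alone that of the former was 0.0425. HTRA2 and DOK1 overlap LOXL3 on the opposite strand, and HTRA2 had log2 fold changes of 0.46 and 0.5 on depletion. Their part in the LOXL3 counts was not tested.

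LOXL4 (chr10:100007447-100027951, minus strand) had the largest response to TGFβ of the 9. It lay at 78.72 and 69.38 in siControl, 113.4 and 134.2 in siPHF13, 191.9 and 169.7 in siControl + TGFβ and 174.9 and 172.3 in siPHF13 + TGFβ, so the siPHF13 libraries fell between the untreated controls and the treated groups. It rose 2.44-fold with TGFβ in control cells (log2 fold change 1.28 ± 0.2 SE, adjusted p = 0.000556) and 1.67-fold with depletion alone (0.73, adjusted p = 0.00788). Without siControl replicate 2 or siPHF13 replicate 2 the adjusted p of the latter was 0.0614 and 0.0635. Once TGFβ was present, depletion gave -0.06 (adjusted p = 0.837), and the treated groups overlapped. The response to TGFβ in depleted cells was 0.49 (adjusted p = 0.266), and the difference between both responses, -0.79 ± 0.28 SE, did not pass (unadjusted p = 0.0144, adjusted p = 0.341).

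**Figure D2:**
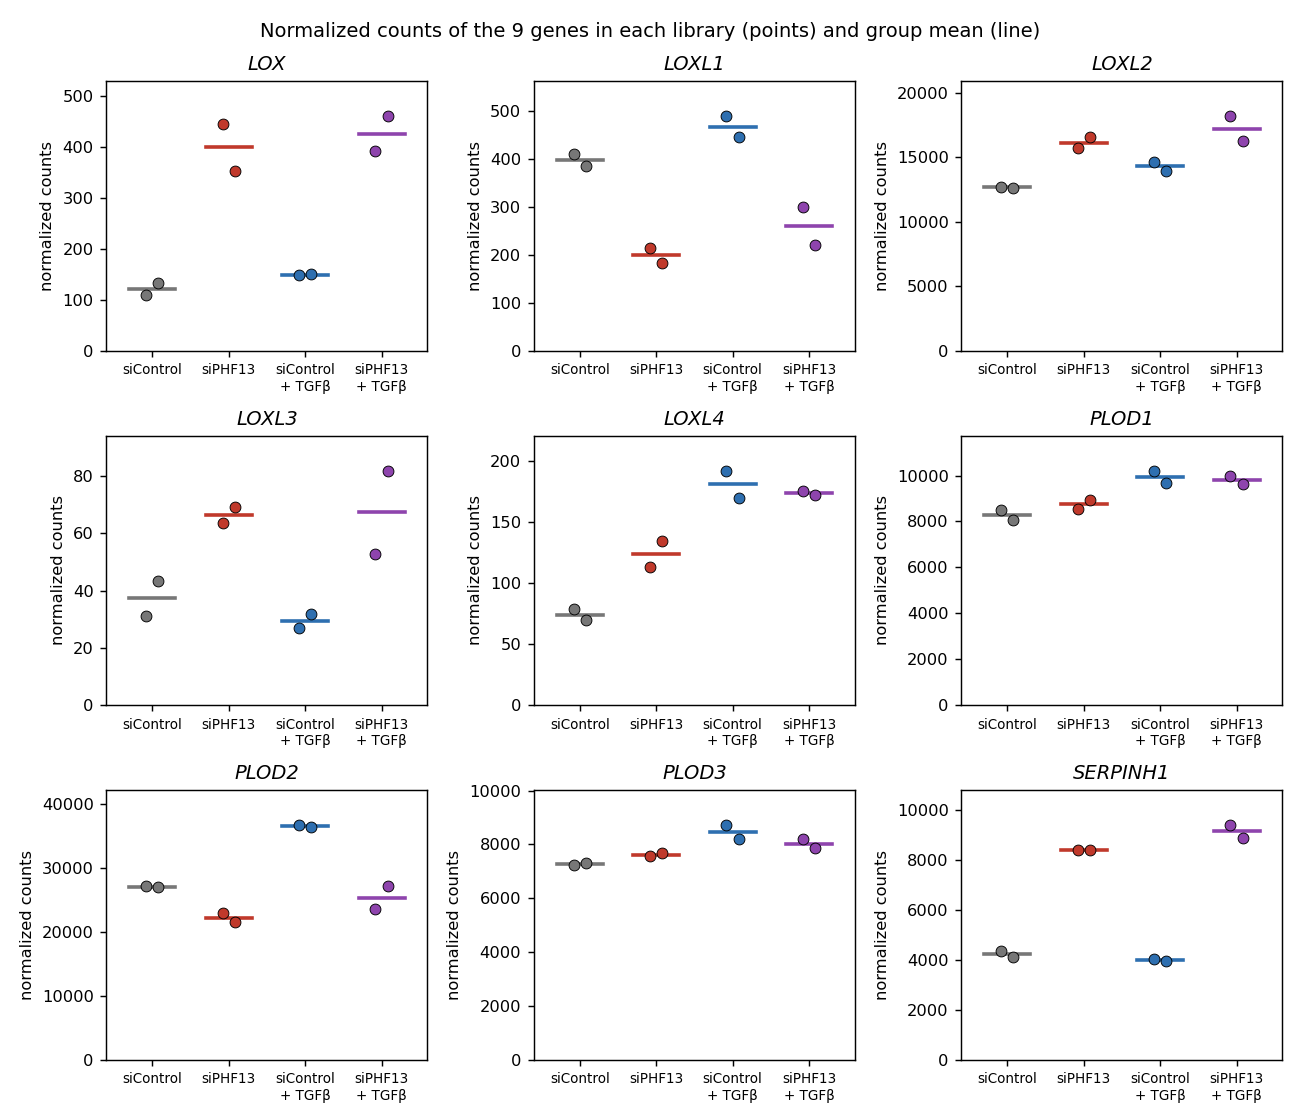
Normalized counts (y axis, from 0, its own scale in each panel) of the 9 genes in the 2 libraries of each group (points) with the group mean (line). LOX and SERPINH1 stand higher and LOXL1 lower in both siPHF13 groups, PLOD2 is highest in siControl + TGFβ at 36680 and 36320, and LOXL4 is lowest in siControl at 78.72 and 69.38.

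Among the lysyl hydroxylases, PLOD2 differed most (chr3:145752926-145881512, minus strand). It lay at 27230 and 26940 normalized counts in siControl, 22950 and 21500 in siPHF13, 36680 and 36320 in siControl + TGFβ and 23600 and 27120 in siPHF13 + TGFβ. The TGFβ-treated controls were above every other library. TGFβ gave 1.35-fold in control cells (log2 fold change 0.43 ± 0.07 SE, adjusted p = 0.000676), and depletion left 82.1% of the control without TGFβ (-0.29, adjusted p = 0.00365) and 69.5% with it (-0.53, adjusted p = 2.56e-05). All 3 differences were below the fold threshold, and the last passed it, at -0.63, when siPHF13 + TGFβ replicate 2 was left out. The test of the difference between TGFβ responses gave -0.24 (unadjusted p = 0.0259, adjusted p = 0.414).

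PLOD1 and PLOD3 differed by small amounts only. PLOD1 (chr1:11994262-12035595, plus strand) lay at 8491 and 8074 in siControl, 8526 and 8952 in siPHF13, 10210 and 9671 in siControl + TGFβ and 9979 and 9612 in siPHF13 + TGFβ. PLOD3 (chr7:100849258-100861701, minus strand) lay at 7224 and 7303, 7579 and 7669, 8716 and 8217, and 8200 and 7858 in the same order. With TGFβ in control cells PLOD1 was 1.2-fold (adjusted p = 0.009) and PLOD3 1.17-fold (adjusted p = 0.0208) of the untreated level, both below the fold threshold, and their log2 fold changes on depletion lay between -0.08 and 0.08 with adjusted p from 0.303 to 0.803. ZNHIT1 overlaps PLOD3 on the opposite strand, with log2 fold changes of 0.06 and 0.11 on depletion.

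SERPINH1 (chr11:75273101-75283828, plus strand) had the smallest adjusted p of the 9 in both depletion comparisons. It lay at 4336 and 4127 in siControl, 8389 and 8391 in siPHF13, 4048 and 3968 in siControl + TGFβ and 9397 and 8893 in siPHF13 + TGFβ. Every depleted library was above every control library, by a gap wider than the spread within any group. The rise was 1.98-fold without TGFβ (log2 fold change 0.99 ± 0.06 SE, adjusted p = 3.49e-08) and 2.28-fold with it (1.19, adjusted p = 6.1e-09). TGFβ gave -0.08 in control cells (adjusted p = 0.444) and 0.12 in depleted cells (adjusted p = 0.392).

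The interaction, which sets the TGFβ response of siPHF13 cells against that of siControl cells, called 0 of the 9 with limma. Of all genes, 0.0601% were called higher and 0.248% lower. At an unadjusted p under 0.05 there were 3 of the 9, namely LOXL4 at -0.79, PLOD2 at -0.24 and SERPINH1 at 0.2 (adjusted p = 0.464), beside 9.46% of all genes. For the other 6 the differences ranged from -0.21 for LOX to 0.31 for LOXL3, which had the widest standard error at 0.48.

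Divided by the length of the canonical transcript in GENCODE, which puts the genes on 1 scale, levels spanned a wide range. In siControl the order of mean normalized counts per kb was PLOD2 at 7224, LOXL2 at 3413, PLOD1 at 2783, PLOD3 at 2575, SERPINH1 at 2056, LOXL1 at 169.7, LOX at 23.97, LOXL4 at 20.59 and LOXL3 at 10.1. LOX and LOXL4 overlapped, and every other neighbouring pair was separate in its libraries. In siPHF13 SERPINH1 moved from the fifth to the third place at 4077 per kb, and LOXL1 at 84.68 and LOX at 78.87 overlapped. In siControl + TGFβ LOXL4 at 50.27 passed LOX at 29.45, and in siPHF13 + TGFβ LOXL2 at 4628 and SERPINH1 at 4444 overlapped. These places depend on the length used: by the union of all annotated exons LOXL2 at 2122 per kb stood above PLOD2 at 1865 in siControl, and SERPINH1 kept the fifth place in siControl at 673.7 and in siPHF13 at 1336, below PLOD3 at 1344. By that length LOX at 71.55 stood above LOXL1 at 54.62 in siPHF13, with separate libraries.

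**Figure D3:**
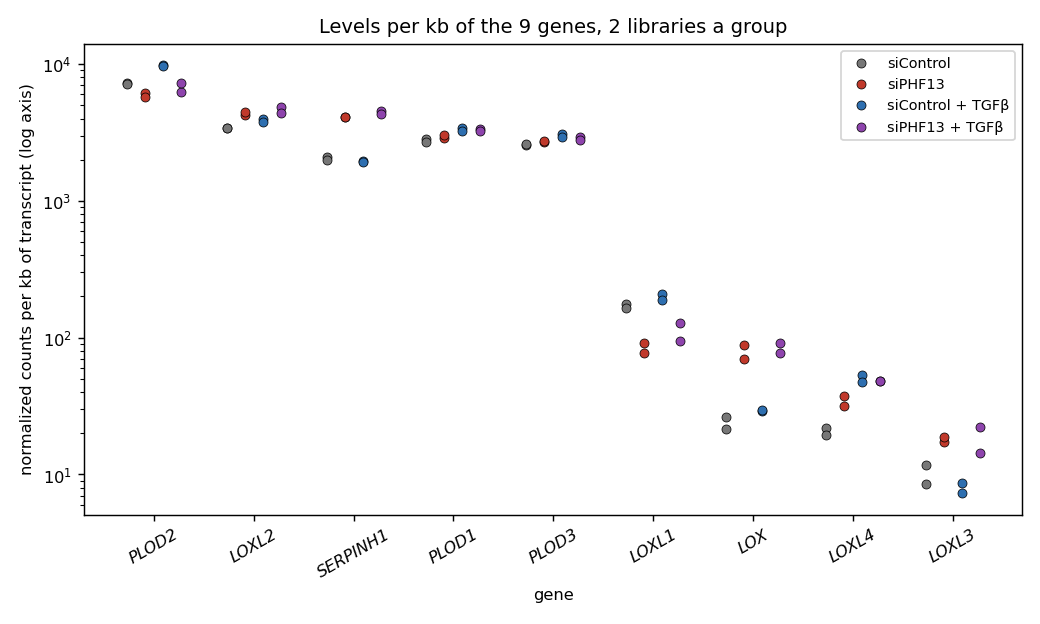
Normalized counts per kb of canonical transcript (y axis, log scale) of the 9 genes, 2 libraries a group. LOXL2 stands far above the other lysyl oxidases, and SERPINH1 rises from a mean of 2056 in siControl to 4077 in siPHF13.

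Within the lysyl oxidases, LOXL2 made up 93.0 to 95.6% of the summed level per kb in every library. LOX made up 0.594 to 0.736% of that sum in the control libraries and 1.5 to 1.98% in the depleted ones, while LOXL1 made up 4.54 to 4.91% and 1.67 to 2.47%. LOX and LOXL3 were a small part of the family's transcripts. PLOD2 was 57.4% ± 0.174 (SD, n = 2) of the lysyl hydroxylases per kb in siControl, 51.2% ± 1.7 in siPHF13, 60.6% ± 0.783 in siControl + TGFβ and 52.4% ± 3.15 in siPHF13 + TGFβ. Its share depended on the length used: by the union of all annotated exons it was 39.7, 33.9, 42.8 and 34.9%, so that the TGFβ-treated controls were the highest by either length.

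The substrates of these enzymes were measured as the fibrillar collagens, of which 7 of 11 had a row, and elastin (ELN) had none. TGFβ raised 2 of the 7 and lowered 0 in control cells and in depleted cells, and depletion raised 1 and lowered 1 without TGFβ and raised 0 and lowered 1 with it. Over all genes depletion raised 7.95% and lowered 10.4% without TGFβ, and raised 8.81% and lowered 11.7% with it. TGFβ raised 3.27% and lowered 1.52% of all genes in control cells, and 1.13% and 0.218% in depleted cells. The median log2 fold change of the 7 was -0.42 and -0.36 on depletion and 0.58 with TGFβ in either kind of cell. COL1A1, the main chain of collagen I, lay at 3345 and 3433 in siControl, 1922 and 1887 in siPHF13, 16410 and 15330 in siControl + TGFβ and 4909 and 4691 in siPHF13 + TGFβ. It fell on depletion, by log2 fold changes of -0.83 without TGFβ (adjusted p = 2.38e-07) and -1.72 with it (adjusted p = 7.67e-10). It rose 4.68-fold with TGFβ in control cells and 2.52-fold in depleted cells, and the difference of these responses passed (log2 difference -0.89, adjusted p = 0.000358). COL5A1, which encodes a chain of the collagen V that starts fibrils, lay at 258.9 and 221.6, 645.5 and 694.5, 1101 and 1135, and 1698 and 1414 in the same order. Depletion raised it without TGFβ (log2 fold change 1.48, adjusted p = 3.28e-07) and gave 0.47 with it (adjusted p = 0.00404), below the fold threshold, and TGFβ raised it (2.22 in control and 1.21 in depleted cells), also with a difference between the responses (-1.01, adjusted p = 0.0161). That call was lost, at adjusted p-values from 0.0575 to 0.142, when siControl replicate 2, either siPHF13 replicate or either siControl + TGFβ replicate was left out.

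Summed per kb, the 7 fibrillar collagens came to 2729 and 2759 in siControl, 2370 and 2384 in siPHF13, 5115 and 4961 in siControl + TGFβ and 2957 and 2843 in siPHF13 + TGFβ. SERPINH1 per unit of that sum was 0.772 and 0.727, 1.72 and 1.71, 0.385 and 0.389, and 1.54 and 1.52. Against the RNA of these 7 collagens alone, SERPINH1 RNA was thus lowest in TGFβ-treated controls and highest in siPHF13. No pair of groups overlapped. Other collagens that SERPINH1 may serve were not part of the sum. By union exon length the ratios were 0.301 and 0.283, 0.664 and 0.66, 0.167 and 0.167, and 0.627 and 0.615, in the same order of groups. COL1A1 made up 20.7 and 21.0%, 13.7 and 13.4%, 54.3 and 52.3%, and 28.1 and 27.9% of the collagen sum. COL1A2 and COL3A1, the partners of COL1A1 in most fibrils, had no row and were not analysed here.

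**Figure D4:**
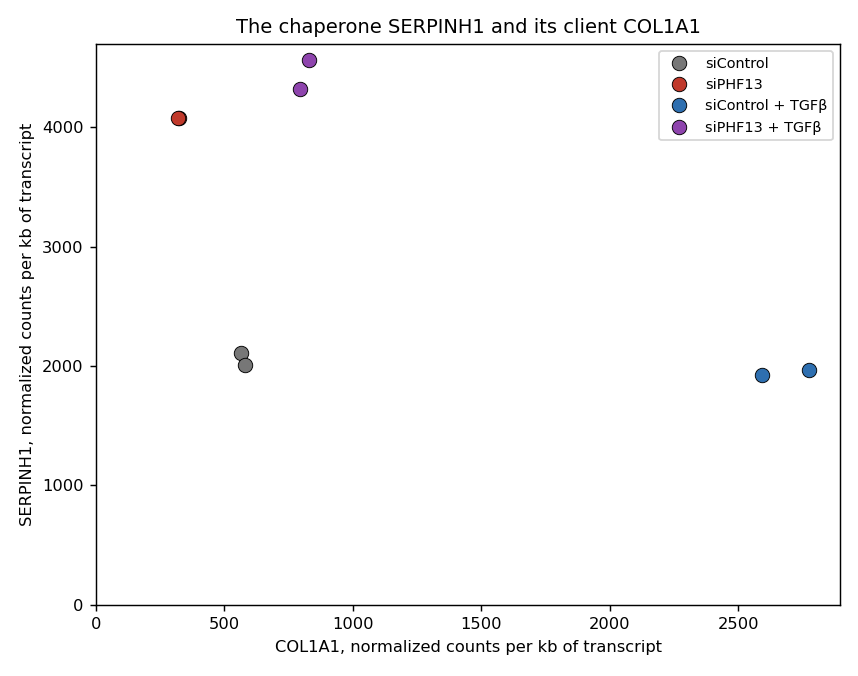
SERPINH1 (y axis) against COL1A1 (x axis), both in normalized counts per kb of canonical transcript, 1 point a library. The siPHF13 libraries lie at the left, with COL1A1 at 324.9 and 319.1 and SERPINH1 at 4076 and 4077, and TGFβ-treated controls lie far to the right, at 2775 and 2593 for COL1A1, with SERPINH1 at 1967 and 1928.

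In the other steps of collagen folding, COLGALT1 rose and P4HA3 fell on depletion in both media. Of 15 genes of prolyl hydroxylation, glycosylation and folding with a row, depletion raised 1 and lowered 2 without TGFβ and raised 1 and lowered 2 with it. TGFβ raised 1 of the 15 in control cells and 1 in depleted cells, where it raised 3.27% and 1.13% of all genes. The shares on depletion, 6.67% higher and 13.3% lower in each medium, were near those of all genes (7.95% and 10.4% without and 8.81% and 11.7% with TGFβ). With no fold threshold 8 of the 15 passed in each medium, beside 47.4% and 50.4% of all genes. The 3 changed in each medium became 1 when siControl replicate 1 or siPHF13 replicate 2 was left out without TGFβ and when siPHF13 + TGFβ replicate 1 was left out with it. COLGALT1, which attaches galactose to hydroxylysine, was the one raised on depletion (log2 fold changes 0.71 and 0.69, adjusted p = 2.04e-06 and 2.46e-06). P4HA3, a catalytic subunit of prolyl 4-hydroxylase, was raised by TGFβ (1.74 in control and 1.71 in depleted cells) and lowered by depletion (-0.68 and -0.7, adjusted p = 0.0248 and 0.0197). The fall of P4HA3 did not pass without siControl replicate 1 (adjusted p = 0.291) or siPHF13 replicate 2 (0.18) in the untreated cells, nor without siControl + TGFβ replicate 1 (0.136) or siPHF13 + TGFβ replicate 1 (0.0608) in the treated ones. LEPREL1, now named P3H2, a prolyl 3-hydroxylase, was lowered with TGFβ (-0.61, and -0.57 and thus under the fold threshold without siPHF13 + TGFβ replicate 1), and CREB3L1, a transcription factor named here after its value was seen, without it (-0.66, adjusted p = 0.0357, and 0.149 without siControl replicate 1 or siPHF13 replicate 2, 0.101 without siControl replicate 2 and 0.0576 without siPHF13 replicate 1). The median log2 fold change of the 15 was 0.16 and 0.12 on depletion, beside 0 over all genes.

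Of 11 genes of procollagen export and processing, depletion raised 1 and lowered 1 without TGFβ and raised 1 and lowered 2 with it, and TGFβ raised 1 in control cells. SEC24D, a coat protein of the vesicles that leave the endoplasmic reticulum, was lowered with TGFβ (-0.67, adjusted p = 1.01e-05, and -0.56 without siPHF13 + TGFβ replicate 2), and PCOLCE2, an enhancer of the procollagen C-proteinase, was raised by TGFβ in control cells (0.66, adjusted p = 0.00234, and 0.55 without siControl replicate 2). The others called were of low level and are named after their values were seen: ADAMTS14, a procollagen N-proteinase, was raised in both media (1.44 and 0.92), its relative ADAMTS3 was lowered with TGFβ (-1.6), and the C-proteinase TLL2 was lowered without it (-2.21). On depletion 9.09% of the 11 were called higher and 9.09% lower without TGFβ, and 9.09% and 18.2% with it. Over all genes these shares were 7.95% and 10.4%, and 8.81% and 11.7%. TGFβ raised 3.27% of all genes in control cells. The median of the 11 was 0.02 without and -0.09 with TGFβ.

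Of 5 partners of the lysyl oxidases with a row, which carry copper to them or bind them in the matrix, depletion lowered 1 in each medium and raised 0, with medians of -0.1 and -0.29. That gene was FN1, fibronectin, at a low level in all libraries (mean 112.4), with log2 fold changes of -0.83 and -1.27, and its fall without TGFβ did not pass without siControl replicate 2 (adjusted p = 0.206) or siPHF13 replicate 1 (0.305). Of 4 enzymes that make other crosslinks or disulfide bonds, depletion raised 2 in each medium and lowered 0, with medians of 0.5 and 0.42. Over all genes depletion raised 7.95% and lowered 10.4% without TGFβ, and raised 8.81% and lowered 11.7% with it. TGM2, the tissue transglutaminase, lay at 4006 and 3677 in siControl, 16790 and 19780 in siPHF13, 7325 and 7383 in siControl + TGFβ and 26040 and 24320 in siPHF13 + TGFβ. Its depleted libraries were above all controls, by log2 fold changes of 2.25 (adjusted p = 3.87e-10) and 1.77 (1.5e-09), and TGFβ raised it too in control cells (0.94, adjusted p = 2.1e-06). PXDN, peroxidasin, which crosslinks collagen IV, rose by 1.35 and 1.23 on the log2 scale (adjusted p = 6.82e-07 and 1.41e-06). The plot of depletion with against without TGFβ places both, with LOX and SERPINH1, in its upper right.

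**Figure D5:**
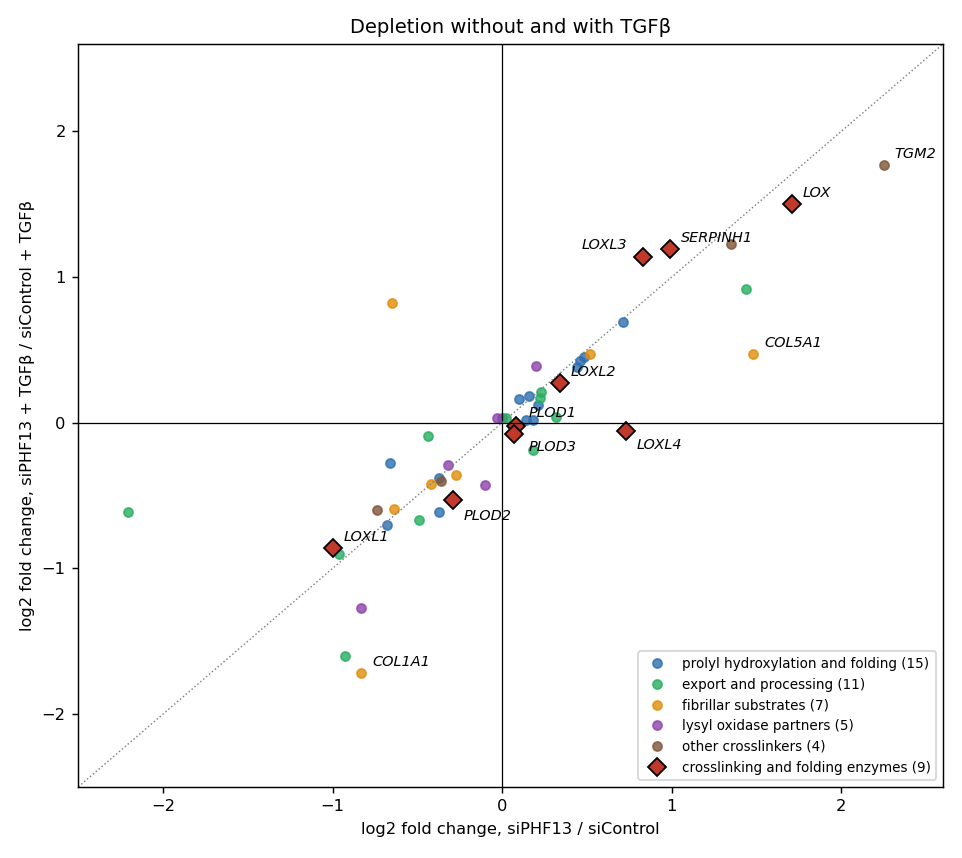
Log2 fold change on depletion without TGFβ (x axis) and with TGFβ (y axis) for the 9 genes (diamonds) and the genes of 5 related lists (points), with a dotted line where both are equal. The axes share no library. LOX, SERPINH1 and TGM2 lie at the upper right, LOXL1 and COL1A1 at the lower left, and LOXL4 on the right at -0.06 with TGFβ.

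Genes of hypoxia and of the heat shock response were described beside LOX, PLOD2 and SERPINH1, which are textbook members of those programmes. Of 12 hypoxia genes with a row, depletion raised 3 (ANKRD37 at 0.7, NDRG1 at 0.68 and the glucose transporter SLC2A1 at 0.61) and lowered 1 without TGFβ, and raised ANKRD37 (0.76) and lowered 1 with it. The one lowered was EGLN3, a prolyl hydroxylase that marks HIF for degradation (-0.88 and -1.28, named after its value was seen). Each of these 4 calls without TGFβ was lost when some library was left out: the rises of NDRG1 and SLC2A1 dropped to 0.47 and 0.5, under the fold threshold, without siPHF13 replicate 1, that of SLC2A1 to 0.56 without siControl replicate 2, and neither ANKRD37 nor EGLN3 passed when any library of that comparison was left out (adjusted p from 0.0577 to 0.182), nor EGLN3 without either siControl + TGFβ replicate (0.0569 and 0.0563). With TGFβ, ANKRD37 did not pass without siControl + TGFβ replicate 2 (adjusted p = 0.191) or siPHF13 + TGFβ replicate 2 (0.161), nor EGLN3 without siPHF13 + TGFβ replicate 1 (0.0655). Over all genes depletion raised 7.95% and lowered 10.4% without TGFβ, and raised 8.81% and lowered 11.7% with it, and TGFβ raised 3.27% in control cells. The median of the 12 was 0.22 without and 0 with TGFβ, beside 0 over all genes in both. In control cells TGFβ raised 1, VEGFA (0.6, adjusted p = 0.000123), which fell under the fold threshold at 0.55 without siControl replicate 2 and 0.48 without siControl + TGFβ replicate 1. Of 11 heat shock genes depletion raised 1 in each medium and lowered 0: the small heat shock protein HSPB1 (0.71 and 0.73, adjusted p = 3.04e-05 and 2.09e-05), which was at 0.58 with TGFβ without siControl + TGFβ replicate 2. The fitted change was above 0 for 10 of the 11 without and 9 with TGFβ. Their medians were 0.17 and 0.31, beside 0 over all genes in both. A heat shock response as such was not tested.

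Across the 8 libraries the genes fell into patterns that are described by Pearson's r of log2 values, where points share groups and scaling. LOX and SERPINH1 ran together (r = 0.96) and LOXL1 ran opposite to SERPINH1 (r = -0.89) and LOXL3 (r = -0.95). LOXL4, PLOD1 and PLOD3 formed another pattern, with r of 0.95 between LOXL4 and PLOD1 and 0.93 between PLOD1 and PLOD3. PLOD2 was most like LOXL1 among the 9 (r = 0.82). The most alike of 11201 genes averaging 100 or more normalized counts were HEXA for LOX (r = 0.9959), MICALL2 for LOXL1 (0.9937), FBXL12 for LOXL2 (0.9947), EML2 for LOXL3 (0.9907), BEGAIN for LOXL4 (0.992), RSU1 for PLOD1 (0.9843), BCAP29 for PLOD2 (0.9904), TRIM62 for PLOD3 (0.9902) and RYR1 for SERPINH1 (0.9975). With 4 group means behind 8 points, such values describe the order of the groups more than the single libraries.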

How the data were processed

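mRNA of Panc-1 cells was measured in 4 groups of 2 libraries, grouped by GEO's labels. Per the labels and the published methods, the authors trimmed paired-end reads with Trim Galore 0.4.1, mapped them with STAR 2.7.0 to hg19, counted them per gene with HTSeq 0.12.4 and normalized with DESeq2. The annotation release and strand setting are not given in the sources used here. The signal analysed is the deposited normalized count, that is reads divided by a size factor of the library. Another 3 tables, which hold fold changes and p-values as the authors computed them, were not used.

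A limma fit (3.58.1, R 4.3.3, trended variance, no replicate block) on log2(normalized count + 1) covered all 8 libraries, with Benjamini-Hochberg adjustment over 13307 genes. A minimum of 10 normalized counts in 2 libraries removed 0 genes. In each library the values are whole multiples of 1 step within a tolerance of 0.01, which gave the reads per library. The step of siPHF13 replicate 1, 0.9946, was the nearest to 1. That library was left out of the count models, although its values were whole multiples of the step as well. As alternatives, edgeR 4.0.16 and DESeq2 1.42.0 were thus run on the other 7 libraries, with 1 library in siPHF13. Squared differences between replicates averaged 3.8 to 27.2 times the variance of counting, so counting intervals would understate the spread and none are given. The procedure was tested on simulated data.

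Lengths, positions and overlaps are from GENCODE v44 lifted to GRCh37, and promoters from RefSeq (GRCh38.p14). All 9 genes were described. From each list of related genes at most 4 called genes averaging 100 normalized counts or more were named, and others called are marked as named later. Marker lists are given by their counts. The genes and lists were chosen with earlier results of these data known. Alternatives were a pseudocount of 5, no minimum, TMM rescaling, only the libraries compared, a replicate block, the count models, no fold threshold and each library left out. The union of exons as length was added after seeing the data, and so was the use of 7 libraries.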

Additional observations from a re-analysis of the deposited data

Results flagged for a closer look

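None of the 9 genes had a response to TGFβ that differed between siControl and siPHF13 cells in the limma interaction test after adjustment. Not passing does not show an equal response: LOXL4 had a log2 difference of -0.79 (limma, unadjusted p = 0.0144). Of the 7 fibrillar collagens with a row, 2 passed, where 0.0601% of all genes were called higher and 0.248% lower. The log2 response of COL1A1 was lower in depleted cells by a log2 difference of -0.89 (adjusted p = 0.000358), from 2.23 to 1.33. For COL5A1 the difference was -1.01 (adjusted p = 0.0161), from 2.22 to 1.21. In both genes the response was above 0 in both kinds of cell. The COL5A1 call was lost when siControl replicate 2, either siPHF13 replicate or either siControl + TGFβ replicate was left out.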

How the results depend on the processing

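Over 351 fits of the 9 genes with another setting, 343 gave the same direction and call. Another 8 passed only because a threshold or the set of libraries was changed, and none turned direction. Many of these fits could not have turned it. The setting with no minimum repeated the main fit, since 0 genes were removed. No fold threshold, the replicate block and the fits of the libraries compared alone left each log2 fold change as it was. The number changed by TGFβ in control cells was 4 in place of 1 with no fold threshold, where 15.9% of all genes passed. With no fold threshold LOXL2 and PLOD2 also passed in both depletion comparisons, as did 47.4% of all genes without TGFβ and 50.4% with it. No other count of changed genes among the 9 moved by over 1.5 times in any setting that was run. Over 360 fits with 1 library left out, 345 were the same, 4 lost and 1 gained a call, and 10 turned direction, all of values that had no call. Those lay at the following ranges: for depletion with TGFβ LOXL4 from -0.14 to 0.03 (0.03 without siControl + TGFβ replicate 1) and PLOD1 from -0.06 to 0.02 (0.02 and 0.01), for TGFβ in depleted cells LOX from -0.07 to 0.26 (-0.07 and -0.02) and LOXL3 from -0.32 to 0.3 (0.05 and 0.3), and for the interaction LOXL1 from -0.07 to 0.37 (-0.07), LOXL2 from -0.16 to 0.0 (0.0) and LOXL3 from 0.0 to 0.62 (0.0). The cause was not tested. The number of the 9 called ranged from 3 to 4 in both depletion comparisons when a library was left out. Counts in the short lists of related genes moved more: with no fold threshold the changed genes on depletion numbered, without and with TGFβ, 6 and 4 of 11 for export (2 and 3 with it), 5 and 5 of 7 for fibrillar collagens (2 and 1), 2 and 4 of 5 for partners (1 and 1), 3 and 3 of 4 for other crosslinkers (2 and 2), 8 and 6 of 12 for hypoxia (4 and 2) and 5 and 7 of 11 for heat shock (1 and 1). Of all genes, 47.4% passed on depletion without TGFβ and 50.4% with it when no fold threshold was set. With 1 library left out, hypoxia ranged from 0 to 4 and from 1 to 4, export from 2 to 4 and from 2 to 3, partners from 0 to 1 without TGFβ, collagens from 1 to 2 with it and heat shock from 1 to 3 with it.

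Libraries share a replicate number in the labels. Deviations of the libraries with number 1 correlated from -0.252 to 0.271 between groups. The lowest value was between siPHF13 and siPHF13 + TGFβ, and the highest between siControl + TGFβ and siPHF13 + TGFβ. The sign was not the same in all pairs of groups, and whether some groups share a batch was not tested. With a replicate block the called genes among the 9 numbered 4, 1, 4, 0 and 0 as without it, in the order depletion, TGFβ in control cells, depletion with TGFβ, TGFβ in depleted cells and interaction, and all genes called 2438, 630, 2711, 171 and 39 against 2448, 637, 2726, 179 and 41. The calls of FN1, ANKRD37, NDRG1, SLC2A1, CREB3L1 and EGLN3 on depletion without TGFβ were lost in edgeR and DESeq2 on 7 libraries. Both models lack siPHF13 replicate 1, and limma without that library lost the same calls, so they are no separate check. The call of EGLN3 was also lost in the limma fit with the replicate block (adjusted p = 0.0526). For the interaction edgeR called 27 genes and DESeq2 56. By the union of exons LOXL2 was 91.9 to 93.9% of its family as group means and PLOD2 33.9 to 42.8% of its own. With 2 libraries a group, the spread between libraries limits LOXL3 and LOXL4 most.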
